A study of Drosophila melanogaster with 2 samples.

Results

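The genes of 10 Drosophila insulator and architectural proteins, Chro, Cp190, Trl, BEAF-32, CTCF, su(Hw), mod(mdg4), pita, M1BP and Dref, were examined for occupancy by the protein Ravus. They were taken by name, with earlier results of these data known. All 10 were found among the 13968 protein-coding genes that Ensembl places on the chromosome arms. For each gene, every peak summit inside the gene or within 1000 bp of either end was collected from the 8 deposited peak lists, without regard to its strength. The libraries are from chromatin immunoprecipitation with sequencing (ChIP-seq), which recovers the DNA bound by a chosen protein. Transgenic flies of the Ravus-GFP strain carried a fusion of Ravus with enhanced green fluorescent protein, named Ravus-eGFP, which was pulled down from whole embryos aged 0 to 24 h with an antibody against GFP. Chromatin had been sonicated to 200 to 800 bp, and the series holds 1 group with 2 biological replicates and no second genotype, treatment or stage. A whole embryo of this age range mixes all tissues and most of embryonic development, so a site bound in few cells cannot be told apart from one bound weakly in many. The peak lists hold no expression values against which the tissue could be checked, and the sex of the embryos was not recorded.

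Insulator proteins are DNA-bound factors and their partners that can block an enhancer from reaching a promoter, mark the edges of chromatin domains and help fold the genome. In Drosophila a set of zinc-finger or related DNA-binding proteins (BEAF-32, CTCF, Su(Hw), Pita, M1BP, Dref and GAGA factor) recognise their own short motifs. A second set (Cp190, Mod(mdg4) and Chromator) is recruited largely through contacts with the first. Many of their sites lie at the promoters of active genes, often between genes that are transcribed away from each other.

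Sequences at some of the Ravus-eGFP summits are printed here, from the dm6 assembly (FlyBase Release 6, RefSeq sequence), 5′ to 3′ on the plus strand. Marked letters are matches only, and their shares at all conservative summits and in flanks are given below. CGATA, marked at Chro, was at 11.3% of conservative summits and 11.6% of flanks. At Chro the 30 bases at chr3L:22878879-22878908 include the summit, and capitals mark a CGATA, the core that BEAF-32 recognises. At mod(mdg4) the 30 bases at chr3R:21365420-21365449 also include the summit, and capitals mark TGCATA, part of the Su(Hw) site, read on both strands with overlapping letters. The strongest summit of Trl is shown with 50 bases to either side, at chr3L:14759474-14759574, where capitals mark TATAAA on the minus strand. For Cp190 the whole interval between its first start site and that of the neighbouring CG4338 is shown, 280 bases at chr3R:15275242-15275521. The Cp190 summit is base 150 of it, and capitals mark runs of 10 or more bases made only of A and T. For M1BP, whose peak was listed in 1 replicate's thresholded list alone, the summit is shown with 50 bases to either side, at chr3R:8731951-8732051, and with the same marking.
Chro: gtgtattgcctgtCGATAgctttaaactaa
mod(mdg4): ttatagcaaaaTATGCATAttggtattggt
Trl: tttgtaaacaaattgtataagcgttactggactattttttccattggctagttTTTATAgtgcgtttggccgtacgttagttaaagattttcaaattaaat
Cp190: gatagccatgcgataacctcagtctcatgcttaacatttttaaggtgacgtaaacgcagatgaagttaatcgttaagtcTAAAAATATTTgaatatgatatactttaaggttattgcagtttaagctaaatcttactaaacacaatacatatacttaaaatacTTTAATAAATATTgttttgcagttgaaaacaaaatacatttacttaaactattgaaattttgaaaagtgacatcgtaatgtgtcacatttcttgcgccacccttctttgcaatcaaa
M1BP: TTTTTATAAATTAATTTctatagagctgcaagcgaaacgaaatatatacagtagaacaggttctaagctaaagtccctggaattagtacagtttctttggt

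Ravus-eGFP summits were found at 5 of the 10 genes in the conservative list: Chro, Trl, Cp190, mod(mdg4) and pita. Of all protein-coding genes, 11.8% had a conservative summit in a window drawn the same way. The 5 genes held 6 summits, 2 of them in Trl, while BEAF-32, CTCF, su(Hw), M1BP and Dref held none. Per 10 kb of window this is 0.667 summits over all 10 genes and 0.156 over all protein-coding genes. The conservative list is the smaller of the pair of thresholded lists that the authors gave for the series. Its 1474 peaks passed their limit on the irreproducible discovery rate (IDR), which measures whether peaks hold the same place in the order of paired inputs. Signal is the authors' own value for each peak, and no source used here states its scale.

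The same 5 genes were the ones with summits in the further thresholded list of the series, with 7 summits, against 13.4% of all protein-coding genes. Replicate 1 alone placed thresholded summits at 6 of the 10, the same 5 and M1BP, against 11.6% of all. Replicate 2 alone placed them at the same 5, against 14.5%. In the ranked lists, which keep weak peaks, counts of genes carry little information. All 10 genes had a summit in replicate 1 and in replicate 2, where 81.2% and 79.7% of all protein-coding genes also did. In the pair of ranked series lists 9 and 8 of the 10 had one, against 41.5% and 40.9% of all.

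The order of the 5 occupied genes was the same in both replicates and in the series lists: Chro first, then Trl, Cp190, mod(mdg4) and pita. The 8 lists are not separate observations of this order. The series lists share 1 set of signals, and each replicate's thresholded list repeats the signals of its ranked list. The order of the other 5 differed between the replicates. In replicate 1 it ran M1BP, Dref, CTCF, BEAF-32 and su(Hw), and in replicate 2 it ran BEAF-32, CTCF, su(Hw), Dref and M1BP. Between neighbours in the order of the 5 occupied genes, the values of the 2 replicates did not overlap at any step. The scales of the 2 libraries need not match, so this describes the values and does not measure separation. Below pita, the values of M1BP, BEAF-32, Dref and CTCF overlapped one another.

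**Figure D1:**
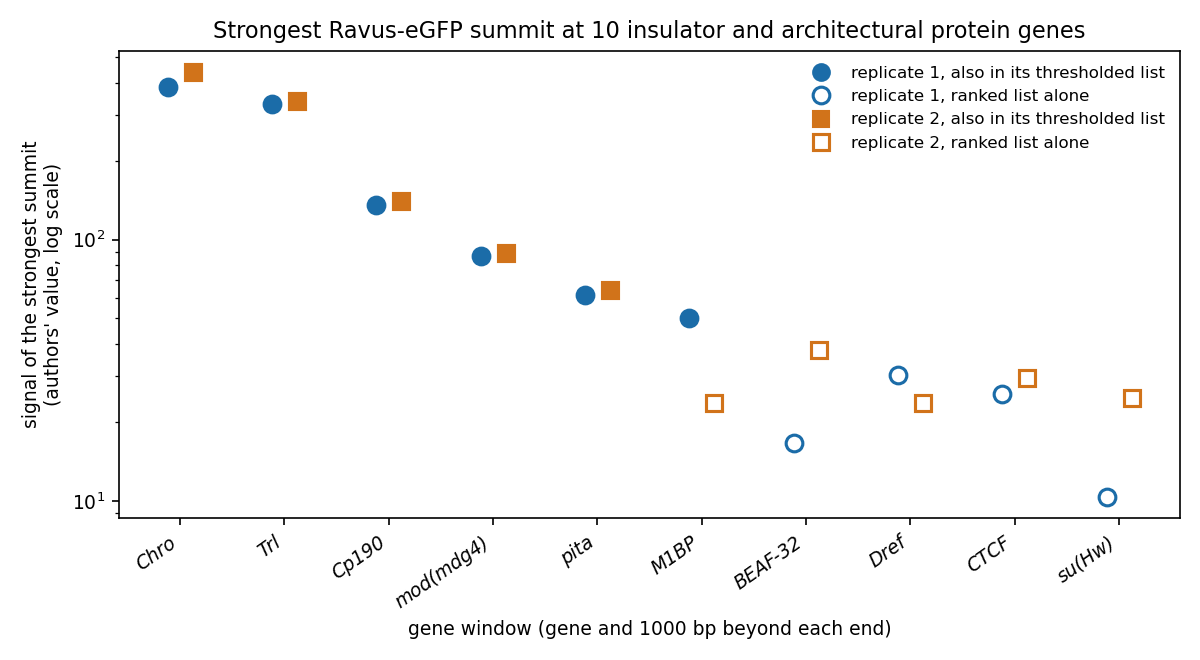
Signal of the strongest Ravus-eGFP summit in each gene window (y axis, authors' value, log scale) in replicate 1 (circles) and replicate 2 (squares). Filled marks are peaks that are also in that replicate's thresholded list. The first 5 genes descend in the same order in both replicates, whereas M1BP is filled in replicate 1 alone and the last 4 genes are open in both.

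Chro, the gene of Chromator, a chromodomain protein of polytene interbands, carried the strongest summit of the 10 genes. The gene (FBgn0044324) spans 22873702 to 22878984 on the minus strand of 3L. Signal at the summit was 386 in replicate 1 and 439 in replicate 2, where it ranked 10 of 52143 and 15 of 37242. The summits of the replicates lay 16 bp apart. In the conservative list the peak ran from 22878758 to 22879033 with a signal of 829, rank 10 of 1474. Its summit at 22878906 was 78 bp inside the gene, in the 5′ UTR of the transcript with the most upstream start.

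The Chro summit also stood 183 bp upstream of Ssl1, which encodes a subunit of the general transcription factor TFIIH and is read away from Chro. The nearest start sites of these divergent genes are 105 bp apart, so the same peak lies at both promoters. Among the 1644 protein-coding genes with a conservative summit, 19 had a stronger one than Chro. The next above was the summit shared by Art3, an arginine methyltransferase gene, and mRpS10, a mitochondrial ribosomal protein gene, at 845. The next below was shared by eIF6 and ytr, at 819. Weak summits elsewhere in the Chro window, at most 22.4 in either replicate, were in the ranked lists alone.

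Trl encodes GAGA factor, a BTB-domain protein that binds GA-rich repeats and keeps promoters accessible. It was the only one of the 10 genes with more than 1 conservative summit, a state that 1.57% of all protein-coding genes shared. The gene (FBgn0013263) covers 14747929 to 14761049 on the minus strand of 3L, with 10 transcripts and 4 start sites. At its strongest summit, signal was 331 in replicate 1 and 340 in replicate 2, with ranks of 19 and 32. The conservative peak spanned 14759366 to 14759664 with a signal of 666.5, rank 23. This summit lay in an intron, 1525 bp downstream of the first start site and outside any exon, so the strongest Ravus-eGFP signal of Trl was not at a promoter.

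The weaker conservative summit of Trl, at 14757214, was 122 bp inside the transcripts that begin furthest downstream, in an exon. Its signal was 81.1 in replicate 1 and 62.5 in replicate 2, and the replicates' summits coincided to the base. In the conservative list it had a signal of 142 and rank 655. The same exon belongs to CG42507, a gene that overlaps Trl on the same strand and starts 748 bp upstream of the summit.

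A further Trl summit, at 14756201, lay in the next intron, with a signal of 64.4 in replicate 1 and 37.3 in replicate 2. It passed the threshold in both replicates and in the further series list, with a series signal of 99.0, but it was not in the conservative list. The spacing of the 3 summits was 1013 and 2310 bp. Among genes with a conservative summit, 37 had a stronger one than Trl, and the neighbours in signal were px at 670 and the pair CG13390 and CG17294 at 666.4. The window of Tsen34, a gene for a subunit of the tRNA splicing endonuclease, also included the strongest Trl summit.

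Cp190 encodes a BTB-domain zinc-finger protein that most Drosophila insulator complexes share. The gene (FBgn0000283) spans 15270432 to 15275241 on the minus strand of 3R. Its summit had a signal of 135 in replicate 1 and 141 in replicate 2, with ranks of 151 and 235 and positions 13 bp apart. In the conservative list the signal was 275, rank 179. The peak was narrow, 134 bp from 15275339 to 15275472, where the median width in the list was 310 bp.

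The Cp190 summit at 15275391 fell between genes, 150 bp upstream of Cp190 and 131 bp upstream of CG4338. These genes diverge from start sites 281 bp apart, the interval printed above. Of the genes with a conservative summit, 257 had a stronger one than Cp190. Next above was a summit shared by CG13016, CG13018 and pea at 275.1, and next below was CG34417 at 274.5.

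The gene mod(mdg4) encodes a family of BTB-domain proteins, 1 of which partners Su(Hw), and its isoforms are made by joining a common 5′ part to alternative last exons through trans-splicing. Ensembl's gene (FBgn0002781) spans 21350846 to 21377401 on the minus strand of 3R, with 22 transcripts from 1 start site. Its summit had a signal of 86.6 in replicate 1 and 88.9 in replicate 2, with ranks of 363 and 583 and positions 2 bp apart. The conservative peak spanned 21365288 to 21365597 with a signal of 181, rank 413.

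This summit, at 21365443, was not at the promoter of mod(mdg4) but 11958 bp downstream of it, among the units that supply the alternative last exons. It lay 45 bp inside pre-mod(mdg4)-E, in an annotated 5′ UTR. Start sites of 10 such pre-mod(mdg4) units, 7 on the plus strand and 3 on the minus strand, stand within 500 bp of it. RefSeq gives mod(mdg4) a shorter extent, 21370101 to 21377401, and the summit lies outside that extent and its margin. The assignment to mod(mdg4) therefore rests on the Ensembl model. Another conservative summit, of signal 204, lay 1364 bp beyond the 5′ end and so outside the window. The start site nearest to it belongs to tin, the tinman homeobox gene of heart development.

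The gene pita encodes a zinc-finger protein that binds boundaries in the bithorax complex and recruits Cp190. It (FBgn0034878) spans 23548967 to 23554712 on the minus strand of 2R. The summit in its window had a signal of 61.4 in replicate 1 and 64.0 in replicate 2, with ranks of 707 and 1015 and positions 1 bp apart. In the conservative list it had a signal of 126, rank 796. It did not lie at the pita promoter but 833 bp past the 3′ end, at 23548134.

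That position is 17 bp inside wmd and 105 bp upstream of levy, the gene of a cytochrome c oxidase subunit, and wmd and levy diverge. The pita promoter itself held a weaker summit, 177 bp inside the gene, with a series signal of 49.1, which passed no threshold. The conservative peak in the pita window thus sits at the promoters of its neighbours.

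**Figure D2:**
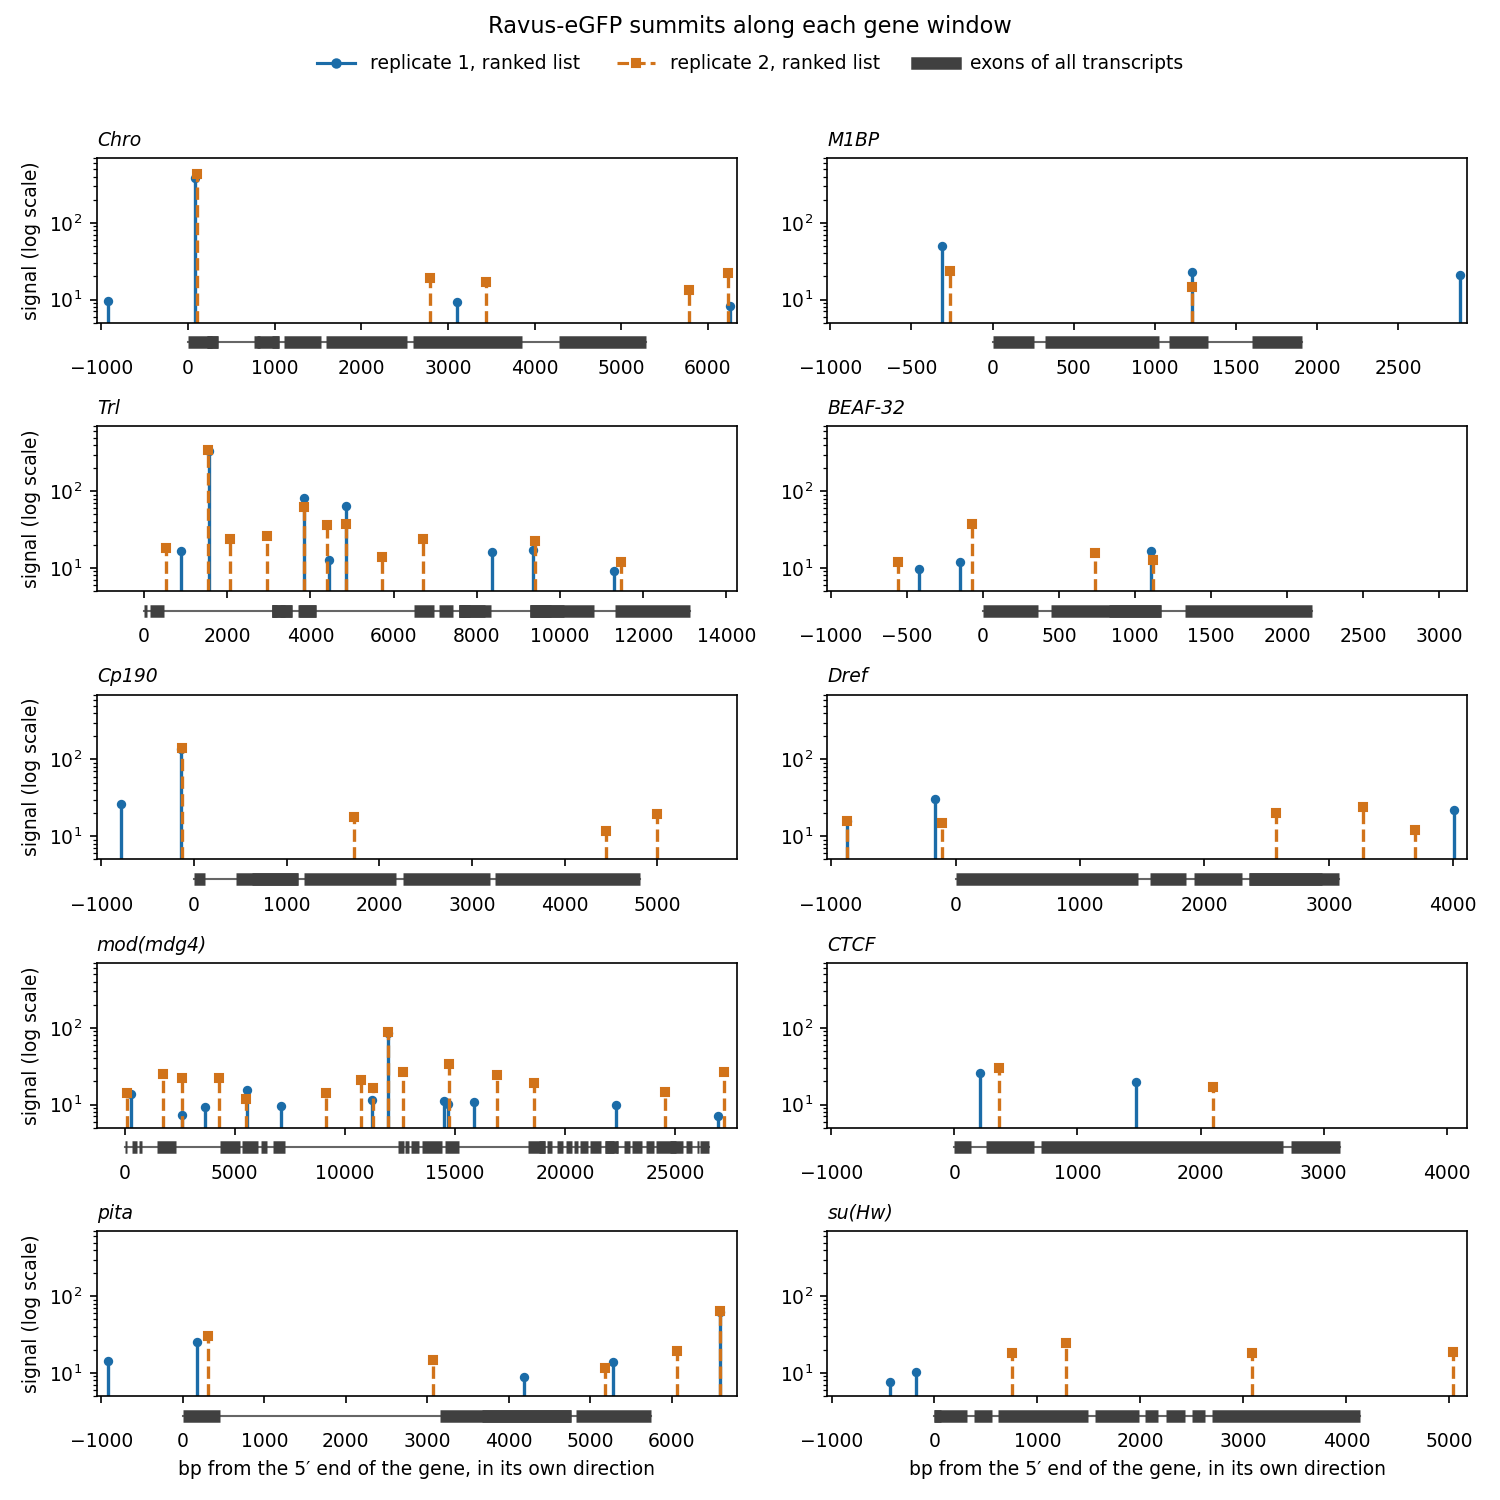
All summits in each of the 10 gene windows in the ranked lists of replicate 1 (solid lines, circles) and replicate 2 (dashed lines, squares). The x axis is the distance in bp from the 5′ end of the gene in its own direction, the y axis the authors' signal on a log scale, and dark boxes are exons. At Chro, Trl, Cp190, mod(mdg4) and pita the tallest lines of both replicates fall together, at 78, 1525, -150, 11958 and 6578 bp in the conservative list. The tallest lines of the replicates at BEAF-32, Dref and su(Hw) do not.

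With a promoter summit defined as one within 500 bp of a start site of the gene itself, 3 of the 10 genes had one in the conservative list: Chro, Cp190 and Trl. The share of all protein-coding genes was 7.09%. Counting any protein-coding gene's start site, 5 of the 6 summits lay within 500 bp of one, against 48.9% of all 1472 conservative summits on the arms. Start sites on both strands were that close at 4 of the 6, those of Chro, Cp190, mod(mdg4) and pita, and at 18.3% of all. This count was added after the positions had been seen, and it is a description of 6 summits. The 6 were collected inside or within 1000 bp of a named gene, a limit not set on the 1472. These shares are therefore not of like sets. At mod(mdg4) the start sites on both strands are all those of pre-mod(mdg4) units.

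M1BP, the zinc-finger protein that binds motif 1 at promoters of housekeeping genes, had the highest series signal of the genes without a conservative summit. It (FBgn0037621) spans 8729790 to 8731698 on the minus strand of 3R. The signal upstream of it was 50.3 in replicate 1 and 23.7 in replicate 2, at ranks 969 of 52143 and 6777 of 37242 in the ranked lists. In the thresholded list of replicate 1 it had rank 914 of 1450, and that of replicate 2 did not hold it. The replicates thus disagreed on whether this peak passed. In the series lists the summit lay at 8732001 with a signal of 81.4, 303 bp upstream of M1BP and 90 bp upstream of the divergent CG8202.

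BEAF-32, the boundary element-associated factor, had its strongest summits at different places in the replicates. The gene (FBgn0015602) spans 14770469 to 14772630 on the plus strand of 2R. Replicate 1 had at most 16.6, inside the gene, and replicate 2 had 37.7, 73 bp upstream of it. The series summit of 51.2 lay 76 bp upstream. None of these passed a threshold.

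Dref encodes the factor of the DNA replication-related element, and its gene (FBgn0015664) spans 9964147 to 9967229 on the minus strand of 2L. The strongest signal in replicate 1 was 30.4, 162 bp upstream of Dref. In replicate 2 the strongest, 23.8, was beyond the 3′ end, 4 bp upstream of CG5850. A weak series summit of 49.3 lay 8 bp inside RpL13, a ribosomal protein gene that diverges from Dref.

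CTCF, the one of these factors that vertebrates also use widely as an insulator protein, spans 7353578 to 7356713 on the minus strand of 3L (FBgn0035769). Its strongest summits were 25.6 in replicate 1 and 29.6 in replicate 2, 206 and 366 bp inside the gene, with a series signal of 40.1. The gene of Su(Hw), the zinc-finger protein of the gypsy insulator, spans 14304455 to 14308589 on the minus strand of 3R (FBgn0003567). It was the only one of the 10 without a summit in any series list. Its strongest values were 10.3 in replicate 1, upstream of the gene, and 24.7 in replicate 2, in coding sequence. A gene without a listed peak may be unbound or below the limit of detection, and these lists do not separate the cases.

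The nearest conservative summits outside the windows of the genes without one were 3722 bp from CTCF, 7012 bp from Dref, 15648 bp from su(Hw), 53084 bp from M1BP and 80155 bp from BEAF-32. For CTCF this was a weak peak nearest to Sec63, with a signal of 79.6. For Dref it was a peak of signal 238 nearest to CG4658. Wider windows of 2000 bp would have added neither.

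At the 6 conservative summits, positions in the replicates differed by 0 to 18 bp, against a median of 17 bp over the 1467 conservative peaks that were matched in both replicates. The ratio of replicate 2 to replicate 1 signal ranged from 0.771 at the exon summit of Trl to 1.14 at Chro. Over the 1467 peaks its median was 1.31, with quartiles of 1.11 and 1.55. All 6 ratios were thus below the median of the list, and 5 of the 6 were below its lower quartile. The scales of the 2 libraries need not match, so the ratios describe position within the list only.

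**Figure D3:**
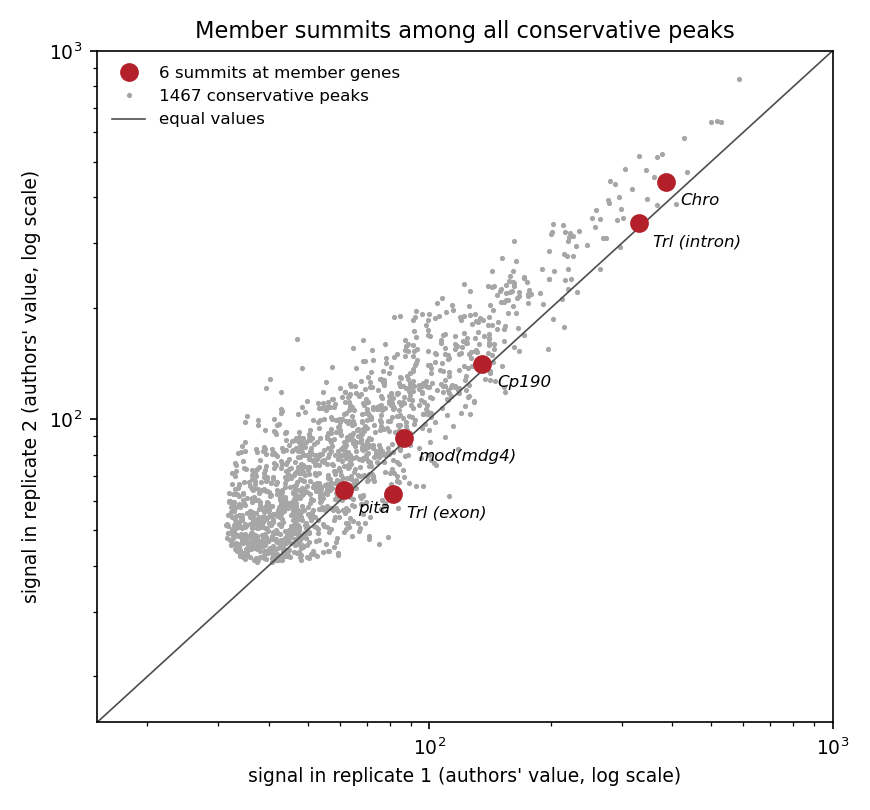
Signal in replicate 1 (x axis) and replicate 2 (y axis), both the authors' values on log scales, at the 6 conservative summits of the insulator and architectural protein genes (large points) and at 1467 conservative peaks (small points). The line marks equal values. The 6 lie close to the line, with ratios of 0.771 to 1.14, below the bulk of the list, whose median ratio was 1.31.

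The DNA at these summits was rich in A and T. GC content from 50 bp before to 50 bp after each of the 6 summits averaged 30.4% ± 6.91 (SD over summits), against 41.8% ± 7.21 in equal windows whose centres lay 300 bp away on each side. Over all 1472 conservative summits on the arms it was 30.5% ± 8.5 (SD), with 44.3% ± 7.03 beside them. GC was lowest at Cp190, 21.8% against 48.0% in its flanks. It was highest at the exon summit of Trl, 42.6% against 46.5%. The intron summit of Trl and the mod(mdg4) summit both had 29.7%, and pita had 26.7%.

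GC content was lower than in the flanks at 5 of the 6 summits, and at 1312 of all 1472. The exception was Chro, where the summit had 31.7% and its flanks, which are themselves A- and T-rich, had 28.2%. The strongest summits of the 5 genes without a conservative peak averaged 39.8% ± 10.4, against 46.0% ± 3.38 beside them, and 3 of these 5 were below their flanks. These summits came from a ranked series list, except that of su(Hw), which came from the ranked list of replicate 2 alone. The BEAF-32 and M1BP summits, with 27.7% and 31.7%, were low, and those of Dref, CTCF and su(Hw), with 40.6%, 45.5% and 53.5%, were not.

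**Figure D4:**
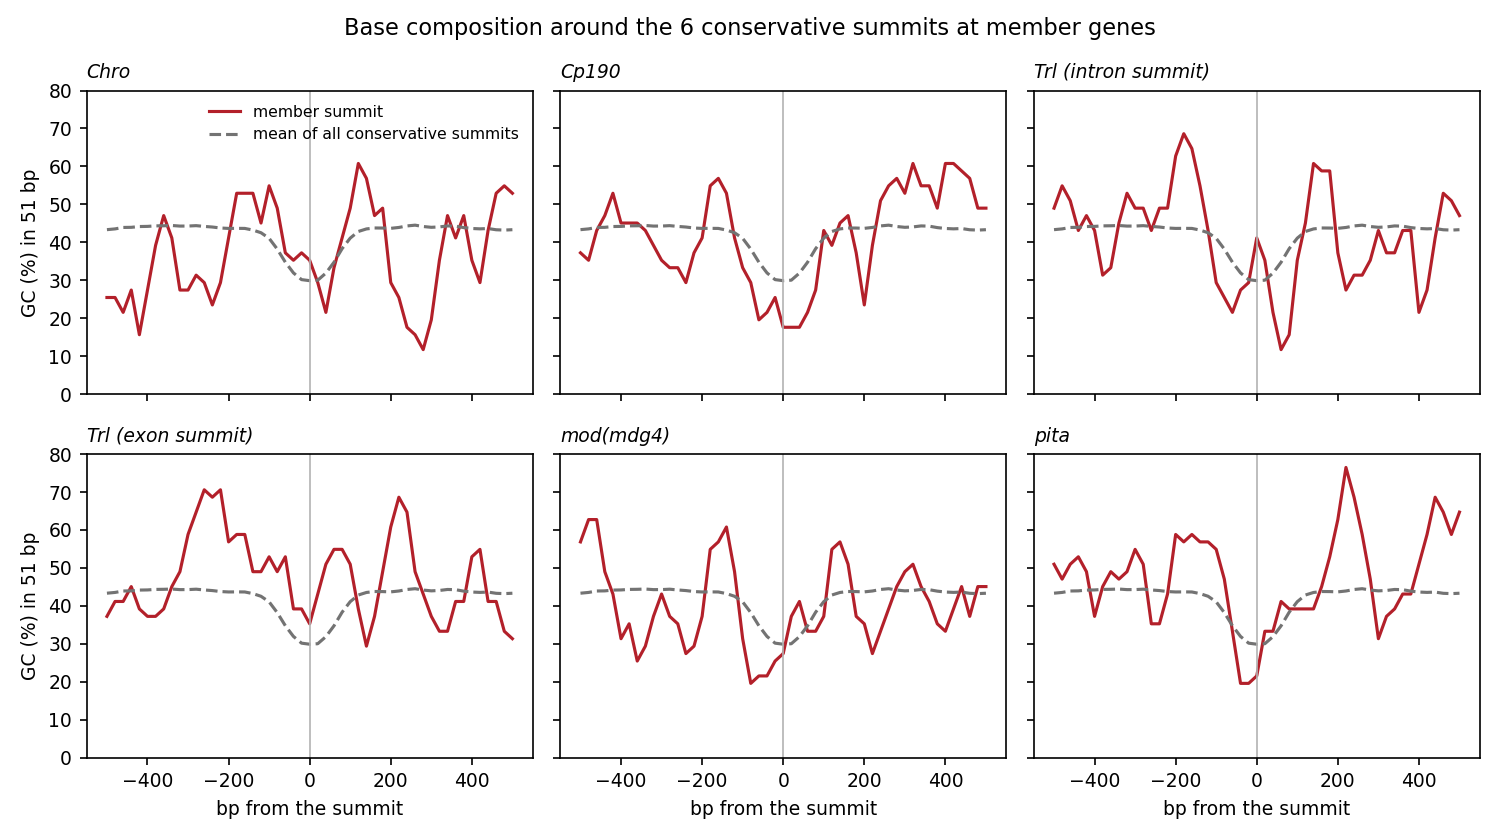
GC content in sliding 51 bp windows (y axis, percent) against the distance in bp from the summit along the plus strand, for each of the 6 conservative summits (solid) and as the mean of all 1472 conservative summits on the arms (dashed). Cp190, pita, mod(mdg4) and the intron summit of Trl dip near the centre. Chro has deeper dips farther out on either side than at its centre, and the exon summit of Trl, at 42.6% within 50 bp of the centre, has a shallow one.

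A run of 10 or more A and T bases was present at 3 of the 6 summits, those of Chro, Cp190 and pita, and at 64.9% of all conservative summits. The flanks held one in 27.0% of windows, and windows centred on the start sites of protein-coding genes held one in 23.5%. The longest runs were 17 bp at pita, 13 bp at Cp190 and 10 bp at Chro. In the M1BP window printed above, the run of 17 bp begins at the edge of the window.

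Motifs of these proteins were searched on both strands of the same windows, with overlapping matches counted as present once. TATAAA and ATATATAT were searched in the same way, but not as motifs of these proteins. The BEAF-32 core, CGATA, was present at Chro and at none of the other 5 summits, and it occurred at 11.3% of all conservative summits, 11.6% of flanks and 23.6% of start sites. Outside that window, the Cp190 interval holds 1 further CGATA, near its Cp190 end. The Su(Hw) core, TGCATA, was present at mod(mdg4) alone, and at 10.3% of all conservative summits, 4.93% of flanks and 3.41% of start sites. TATAAA was present at the intron summit of Trl and at pita, and at 27.0% of all conservative summits, 9.78% of flanks and 15.5% of start sites.

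No match was found at any of the 6 for the DRE of Dref, TATCGATA, present at 0.543% of all conservative summits and 4.48% of start sites, or for the M1BP motif, GGTCACAC, present at 0.272% and 4.67%. The GAGA factor repeat GAGAG, at 8.15% of all conservative summits and 12.7% of start sites, was also not among the 6, and neither were the CTCF core AGNNGGCGC, at 0.883% and 0.944%, and ATATATAT, at 4.01% and 1.07%. The flanks held these at 0.510% for the DRE, 0.238% for the M1BP motif, 18.0% for GAGAG, 0.951% for the CTCF core and 1.26% for ATATATAT. DRE includes the BEAF-32 core, so these counts overlap. These are matches of letters only.

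Beside the 5 of 10 genes with a conservative summit, a list of 27 further architectural genes (insulator partners, cohesin, condensin and related zinc-finger proteins) had 6, where 11.8% of all protein-coding genes had one. The difference between the 2 lists was not tested. JIL-1, the histone H3 kinase that works with Chromator, had the highest signal of the 6, 202, in an intron 7108 bp from its start. It was 97.9 in replicate 1 and 107 in replicate 2. The RNA-binding protein gene shep, which is 122 kb long, held 3 summits, the strongest 142 and 177 bp upstream of a start site.

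The zinc-finger gene row had a summit of 112, 80 bp upstream of its start. For lolal, whose BTB protein partners GAGA factor, the value was 88.9, 7 bp upstream. The condensin gene Cap-H2 had 86.9, 192 bp upstream and closer to MED7, and woc, a relative of row, had 75.1, 332 bp inside. Promoter summits of their own were present at 3 of the 10 genes and at 5 of the 27, all but JIL-1 of the 6. Of all protein-coding genes, 7.09% had one. All 6 were weaker than Chro, Trl and Cp190, but JIL-1 was stronger than mod(mdg4) and pita, and shep was stronger than pita.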

How the data were processed

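ChIP-seq peaks for Ravus-eGFP in whole embryos were used as the authors deposited them on dm6, as 8 lists. Each replicate has a ranked and a thresholded list, and a pair of ranked lists, a conservative one and a further thresholded one cover the series. The deposited signal is 1 value per peak from the peak caller, of unstated scale. The deposited score, an integer, encodes the IDR and is at least 830 for conservative peaks. Ranked lists by the authors give −log10 IDR as well, with a cap of 5. Alignment and calling tools were not given in the sources used here. Read numbers were not analysed, so depth is unknown, and no share here has an interval.

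Peaks were ranked by signal within each list. A summit is the peak start plus the deposited offset (columns 2 and 10), written 1-based. Genes came from Ensembl 115 (BDGP6.54) and sequence from RefSeq's copy of the same assembly, whose arm lengths were compared with the peaks. Windows were built with Python 3.11.15 and pandas 2.3.3, checked on simulated peaks, and gave the same gene counts as bedtools 2.31.1. With 1 group, no test was made. The text names all 10 genes with each conservative summit, genes starting nearest to those summits, the genes next in signal to the 3 strongest, and the 6 bound genes of the 27-gene list. The genes, lists and motifs were chosen with earlier results of these data known. Alternatives were other lists, margins, promoter distances, overlap of peak intervals, window sizes and each replicate alone. The RefSeq gene extents were added after the data had been seen. Sequence from chromosome arm 2R and longer UTR stretches are not printed.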

Additional observations from a re-analysis of the deposited data

How the results depend on the processing

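Chro, Trl and mod(mdg4) had a conservative summit in every setting that used Ensembl's gene extents, the restriction to stronger peaks included, and Chro and Trl in all settings. With the gene body alone 3 of the 10 genes remained, since the Cp190 and pita summits lie outside the genes, and the share of all protein-coding genes was 5.03%. Margins of 500 bp left 4 genes, without pita, where the share of all protein-coding genes was 10.5%. In the 737 peaks with the higher signal, 4 genes remained, again without pita, the share of all protein-coding genes was 6.72%, and 2 of the 27 other architectural genes were left. RefSeq's extents, an alternative chosen after seeing the data, left 4, without mod(mdg4). These extents were applied to the 10 genes only, so this count has no share of all protein-coding genes beside it. Replicate 1 alone gave 6 genes, 8 summits, 11.6% of all protein-coding genes, 5 of the other architectural genes and 4 promoter genes. Replicate 2 alone gave 5 genes, 7 summits, 14.5% of all protein-coding genes, 6 of the other architectural genes and 3 promoter genes. For the promoter genes, the share of all protein-coding genes was not taken in single replicates.

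Rank in percent of the list, counted from the top, was 12.1% for Cp190 (9.86 to 11.8% in the replicates) and 1.56% for Trl (1.17 to 1.57%). It was 28.0% for mod(mdg4) (23.9 to 29.6%) and 54.0% for pita (46.7 to 51.6%, and 48.4% in the further list). With a 2000 bp margin mod(mdg4) had 22.5%, but this is the rank of another summit, the one of signal 204 nearest to tin. Mean GC content at the 6 conservative summits was 29.7% within 25 bp of the summit and 32.7% within 100 bp. It was 30.0% over the 7 summits of the further list. Thresholded summits gave 29.1% over 8 in replicate 1 and 28.7% over 7 in replicate 2. These means are over other sets of summits than the 6. Depth is unknown, so a missing peak sets no limit on binding. No paired analysis was possible because the series has 1 group.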
